A study of Homo sapiens with 36 samples.

Results

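This report follows 9 genes of the IL6 family and of interleukin 1 (IL1) through RNA sequencing of the human cell lines SW1783 and HT29. The genes were taken by symbol, as a fixed list, from the 60675 genes of the deposited count table, and all 9 matched a single row each. The list was chosen with earlier results of these data known. They comprise the secreted ligands IL6, IL11, LIF, IL1A and IL1B, the receptor chains IL6ST, LIFR and OSMR, and the feedback inhibitor SOCS3.

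SW1783 was derived from an astrocytoma and HT29 from a colorectal adenocarcinoma, so each tissue is represented by 1 tumor line. Cells were treated for 24 h. In batch B, each line received ACD, an extract made in hot water from Aconitum carmichaeli Debeaux, a monkshood, at 500 µg/mL (high), 100 µg/mL (medium) or 20 µg/mL (low), or vehicle. In batch A, each line received 10 µM wortmannin, which blocks PI3K and served as positive control, or vehicle of that batch. The labels give 0.1% DMSO for the vehicle. This gave 12 groups of 3 libraries, 36 libraries in all, and vehicles were not pooled, so that a treatment is set only against the vehicle libraries of the same batch. The question behind the design was whether ACD has different effects in brain-derived and gut-derived cells.

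IL6-family cytokines bind a private receptor chain and then the shared chain gp130, the product of IL6ST. LIF signals through LIFR with gp130, oncostatin M through OSMR or LIFR with gp130, and IL6 and IL11 through their own alpha chains with gp130. The complex activates JAK kinases and the transcription factor STAT3, and SOCS3 is a STAT3 target that binds gp130 and shuts the signal down. IL1A and IL1B bind the receptor IL1R1, which acts through MYD88 and IRAK kinases on NF-kB, and IL6 and LIF are among the genes that IL1 can induce. Astrocytes and their tumors are known to make IL6-family cytokines.

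Library totals ranged from 15941255 to 33866644 counts, with medians of 22303972 in SW1783 and 22849798 in HT29. A count of 0 allows up to 3 counts, that is 0.089 to 0.188 CPM (counts scaled to a common library total), counting error only. SW1783 carried high levels of the mesenchymal genes VIM (4080 to 4970 CPM) and FN1 (4900 to 7720 CPM). In its batch B, COL1A2 stood at 2100 to 2200 CPM in vehicle and 514 to 566 CPM at the high dose. CD44 stood at 2780 to 2840 CPM and 1970 to 2020 CPM. The astrocyte markers GFAP (at most 0.261 CPM), AQP4 (at most 0.0408 CPM), S100B (at most 0.253 CPM) and ALDH1L1 (at most 0.0869 CPM) were at or near 0 in SW1783. In HT29, ALDH1L1 was higher, at 5.73 to 10.8 CPM. The astrocyte glutamate transporter SLC1A3 was present, at 5.58 to 50.1 CPM in SW1783 against 0 to 0.0419 CPM in HT29, and in batch B it stood at 33.1 to 35.2 CPM in vehicle and 5.58 to 5.92 CPM at the high dose. The defining astrocyte markers of SW1783 were thus mostly absent. HT29 carried EPCAM (452 to 585 CPM), KRT20 (233 to 312 CPM) and VIL1 (131 to 257 CPM), which mark intestinal epithelium. The leukocyte marker list, whose cells are a common source of these cytokines, summed over 6 genes to 156 to 163 CPM in vehicle and 181 to 193 CPM at the high dose in SW1783 (batch B), mostly CD68. Of that list PTPRC, the pan-leukocyte marker, stood at 12.7 to 14.2 CPM in vehicle and 3.28 to 4.91 CPM at the high dose, and CD3E was at 0 in every SW1783 library.

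Promoter windows were searched for every member that had one. Those of the ligands whose mRNA changed are printed, to show the sequence before the starts of genes that moved together or apart. RefSeq on GRCh38.p14 gave windows for 8 of the 9 members, all but LIF. Of the 250 bases before the first listed start, those outside annotated exons of the gene are printed 5′ to 3′ in lower case, and capitals mark a motif match. The motifs searched on both strands were AP-1 (TGANTCA), the cAMP response element (TGACGTCA), a STAT palindrome (TTCNNNGAA), a C/EBP-ATF composite (TGATGNAA) and the NF-kB consensus.
IL6, chr7:22726950-22727146, plus strand: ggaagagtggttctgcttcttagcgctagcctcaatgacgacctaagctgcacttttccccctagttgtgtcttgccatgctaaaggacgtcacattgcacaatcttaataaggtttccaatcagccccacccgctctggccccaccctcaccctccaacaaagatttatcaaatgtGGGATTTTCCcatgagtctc
IL1A, chr2:112784494-112784743, minus strand: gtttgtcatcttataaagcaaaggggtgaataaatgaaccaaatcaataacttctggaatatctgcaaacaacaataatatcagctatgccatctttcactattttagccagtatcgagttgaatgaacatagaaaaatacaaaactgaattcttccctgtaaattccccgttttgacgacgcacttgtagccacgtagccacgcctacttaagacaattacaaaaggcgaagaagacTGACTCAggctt
IL1B, chr2:112836817-112837029, minus strand: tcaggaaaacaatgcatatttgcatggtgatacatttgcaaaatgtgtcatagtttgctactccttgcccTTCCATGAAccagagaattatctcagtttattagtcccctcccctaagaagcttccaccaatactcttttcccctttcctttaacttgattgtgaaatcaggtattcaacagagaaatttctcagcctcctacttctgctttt
IL11, chr19:55370464-55370713, minus strand: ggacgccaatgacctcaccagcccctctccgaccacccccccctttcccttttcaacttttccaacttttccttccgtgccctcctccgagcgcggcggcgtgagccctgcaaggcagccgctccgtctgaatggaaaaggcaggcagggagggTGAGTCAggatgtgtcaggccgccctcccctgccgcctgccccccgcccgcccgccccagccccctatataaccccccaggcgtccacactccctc
The IL6 window holds an NF-kB match at -73 to -64 from the start. The IL1A window holds an AP-1 match at -12 to -6 and the IL11 window an AP-1 match at -96 to -90. The IL1B window holds a STAT match at -180 to -172. Among the windows not printed, IL6ST held an NF-kB match at -53 to -44 and LIFR a STAT match at -165 to -157. Both genes were within 1.08-fold of vehicle at the high dose in SW1783. The OSMR and SOCS3 windows held 0 matches. Among all 35116 RefSeq windows of 250 bases, 9.96% held the NF-kB consensus, 6.57% held AP-1, 6.57% held the STAT palindrome, 3.14% held the C/EBP-ATF composite and 1.65% held the cAMP response element. IL11 and IL1A both held an AP-1 match, and at the high dose in SW1783 IL11 fell and IL1A rose. A match in letters is no measurement of binding, and a role of any match in these changes was not tested.

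At baseline the members separated the lines. In vehicle of batch B, 8 of the 9 members were called higher in SW1783 than in HT29 (DESeq2 Wald test, adjusted p under 0.05 and more than 1.5-fold), where 28.4% of all genes tested were called higher and 52.8% in either direction. A normalized count is a count divided by the size factor of its library. In the fit over both lines, IL11 averaged 1753.8 ± 85.4 (SD, n = 3) normalized counts in SW1783 and 11.7 ± 6.1 in HT29. IL6ST averaged 14912 ± 284 in SW1783 and 1863 ± 182 in HT29, a log2 difference of 3.00 (95% interval 2.86 to 3.13). IL6 averaged 85.7 ± 9.1 in SW1783 and had 0 counts in all 3 HT29 vehicle libraries, at least 30.0-fold lower against a floor of 3 counts per library. LIFR averaged 2535 ± 73.7 in SW1783 and likewise had 0 counts in HT29, at least 887-fold lower. OSMR (0 to 1 counts), SOCS3 (1 to 4 counts), IL1B (0 to 2 counts) and IL1A (1 to 3 counts) were near 0 in the HT29 vehicle libraries.

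LIF, a cytokine that acts on stem cells, neurons and glia, was the exception. It averaged 567.3 ± 16.5 normalized counts in SW1783 vehicle and 549.5 ± 20.5 in HT29 vehicle, with a log2 difference of 0.04 ± 0.10 (SE; DESeq2 Wald test, adjusted p = 0.706) and a 95% interval of -0.14 to 0.23. HT29 thus held transcript of LIF and of the shared chain IL6ST, and at most 2 counts of LIFR in any of its 18 libraries.

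Levels can be ordered between genes only per length. In SW1783 vehicle, normalized counts per kb of exon were 1240 ± 23.5 for IL6ST, 754 ± 19.5 for OSMR, 655 ± 31.9 for IL11, 209 ± 12.2 for SOCS3, 209 ± 6.06 for LIFR, 147 ± 4.26 for LIF, 22.6 ± 1.49 for IL1B, 19.8 ± 2.11 for IL6 and 6.20 ± 1.28 for IL1A. The neighbours SOCS3 and LIFR lay within their SDs of each other, as did IL1B and IL6. At the high dose the order of ligands changed, with LIF at 654 ± 30.8, IL11 at 332 ± 22.9, IL6 at 218 ± 12.3, IL1A at 113 ± 10.3 and IL1B at 65.2 ± 0.864. IL11 was the ligand with the highest level in vehicle and LIF the one with the highest level at the high dose.

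**Figure D1:**
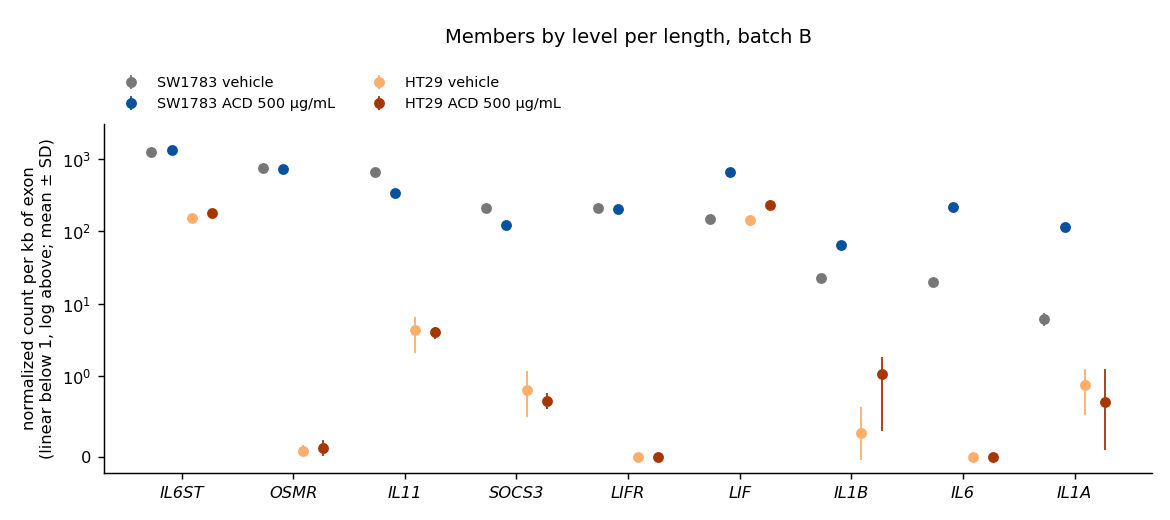
Levels of the members in batch B as normalized counts per kb of exon (mean ± SD, n = 3; linear below 1 and logarithmic above), in the vehicle and 500 µg/mL groups of both lines. In vehicle LIF was alike in both lines, at 147 in SW1783 and 142 in HT29, whereas OSMR was at 754 in SW1783 and 0.0765 in HT29.

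In SW1783, the high dose of ACD raised IL6, LIF, IL1A and IL1B and lowered IL11 and SOCS3, while the receptor chains IL6ST, LIFR and OSMR were within 1.08-fold of vehicle. With 4 members higher and 2 lower, 6 of 9 were called. Over all genes tested, 17.7% were called, 8.42% higher and 9.28% lower. The median log2 fold change was 0.11 over the 9 members and -0.01 over all genes tested. Bulk RNA cannot tell more RNA per cell from more cells that make it.

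IL6, the name-giving cytokine of the family and a driver of the acute phase response, was at 82.0, 85.9 and 69.7 normalized counts in the vehicle libraries and at 846.3, 944.2 and 870.8 at the high dose. All high-dose libraries lay above all vehicle libraries. The log2 fold change was 3.48 ± 0.15 (SE), or 11.2-fold (Wald test of DESeq2, adjusted p = 8.11e-118). LIF was at 519.5, 511.6 and 541.2 in vehicle and at 2506.3, 2333.4 and 2304.7 at the high dose. LIF thus rose in all 3 libraries, by 2.18 ± 0.07 on the log2 scale or 4.54-fold (DESeq2, adjusted p = 9.96e-194).

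IL11, an IL6-family ligand best known in stromal cells and fibrosis, moved the other way. Its vehicle libraries were at 1569.8, 1579.6 and 1712.0 normalized counts and its high-dose libraries at 900.7, 816.2 and 793.2, with no overlap. IL11 fell by 0.96 ± 0.07 on the log2 scale (DESeq2, adjusted p = 2.75e-38). Ligands that share the receptor chain gp130 therefore changed in opposite directions in the same libraries.

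IL1A and IL1B are inducible ligands of the same receptor, the first active as a precursor and often bound to cells, the second processed by the inflammasome. IL1A was at 9.2, 14 and 11.4 normalized counts in vehicle and at 191.0, 226.1 and 224.5 at the high dose. It had the largest fold change of the 9 members, 4.2 ± 0.31 on the log2 scale or 18.4-fold (DESeq2, adjusted p = 1.53e-40), from a base of 9 to 16 counts per vehicle library. IL1B was at 59.4, 67.5 and 61.4 in vehicle and at 186.4, 182.0 and 185.2 at the high dose, higher by 1.55 ± 0.17 on the log2 scale (DESeq2, adjusted p = 4.33e-18). Neither gene overlapped between the groups.

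Of the receptor chains, IL6ST was at 14057, 13569 and 13708 normalized counts in vehicle and at 15176, 14774 and 14798 at the high dose. This small, non-overlapping difference of 0.11 ± 0.02 on the log2 scale passed the test (DESeq2, adjusted p = 1.43e-05), as 45.0% of all genes tested did, but not the fold threshold. LIFR averaged 2342.6 ± 66.7 in vehicle and 2302.4 ± 64.1 at the high dose, with overlapping libraries and a log2 difference of -0.03 (95% interval -0.11 to 0.06; adjusted p = 0.685). OSMR averaged 4995 ± 126 and 4850 ± 40.9, a log2 difference of -0.04 (95% interval -0.11 to 0.02; adjusted p = 0.312). Its high-dose libraries, at 4808.3 to 4890.0, all lay below the lowest vehicle library at 4907.0. Of the 9 members, 8 had groups that did not overlap, against 59.2% of all genes tested.

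SOCS3, the gp130 inhibitor, was at 497.0, 531.8 and 558.9 normalized counts in vehicle and at 303.3, 283.8 and 357.3 at the high dose. It fell by 0.75 ± 0.10 on the log2 scale (DESeq2, adjusted p = 1.49e-13), with no overlap. SOCS3 was thus lower in the libraries in which IL6 and LIF were higher.

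**Figure D2:**
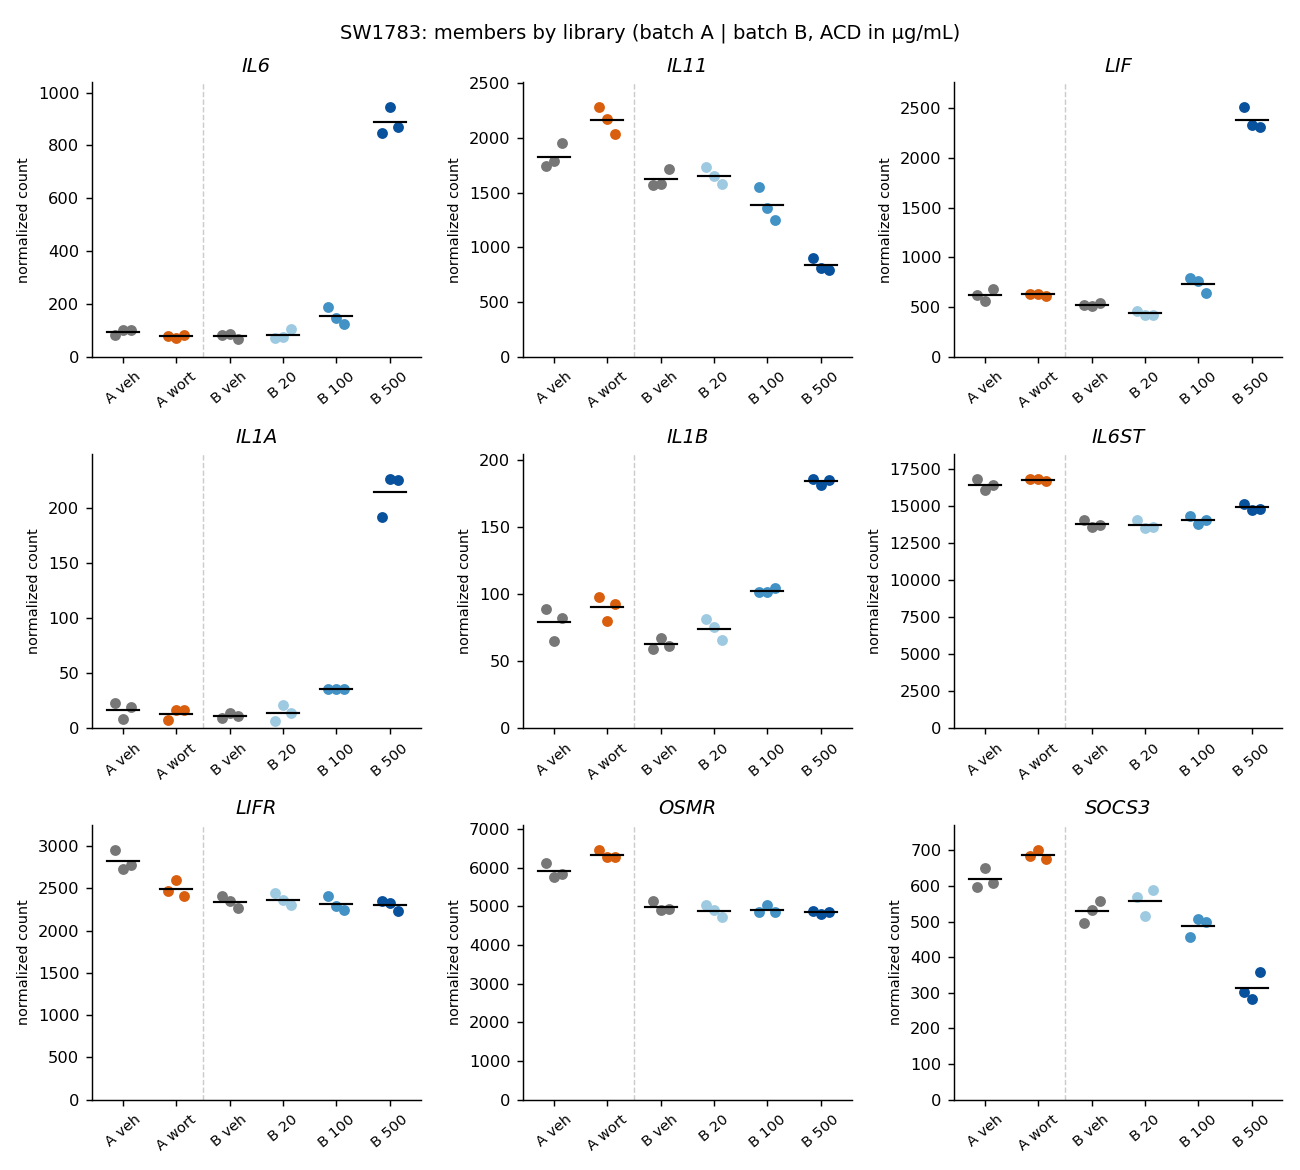
Normalized counts of the 9 members in each SW1783 library (points) with the group mean (bar), batch A left and batch B right of the dashed line, with ACD in µg/mL. Batches were normalized in separate fits, so values are to be compared within a batch. At 500 µg/mL, IL6 lay between 846.3 and 944.2 against 69.7 to 85.9 in its vehicle, and SOCS3 between 283.8 and 357.3 against 497.0 to 558.9.

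The share of mitochondrial ribosomal RNA moved with ACD in these libraries. In SW1783 it was 0.912% to 0.960% in vehicle, 3.01% to 3.33% at the low, 7.67% to 8.05% at the medium and 5.76% to 6.06% at the high dose. With size factors computed without mitochondrial genes, the log2 fold changes at the high dose were 3.48 for IL6, 2.18 for LIF, 4.2 for IL1A, 1.55 for IL1B, -0.96 for IL11 and -0.75 for SOCS3.

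At the medium dose in SW1783, IL6, IL1A and IL1B rose, so that 3 of 9 members were called, all higher, where 3.78% of all genes tested were called and 2.33% were called higher. IL6 was at 188.9, 148.2 and 125.3 normalized counts, above all vehicle libraries (log2 fold change 0.95 ± 0.16; DESeq2, adjusted p = 7.61e-08). IL1A was at 35.9, 35.4 and 35.8, a change of 1.61 ± 0.33 (DESeq2, adjusted p = 1.52e-05). IL1B was at 102.0, 101.6 and 104.6, a change of 0.71 ± 0.18 (DESeq2, adjusted p = 0.000731). IL6, IL1A and IL1B, and likewise LIF and IL11, left their vehicle range at this dose, whereas the receptor chains and SOCS3 overlapped with theirs. At the high dose 59.2% of all genes tested had groups without overlap, and the share at the medium dose is not given here.

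LIF and IL11 passed the test at the medium dose, as 30.1% of all genes tested did, but not the fold threshold. LIF was at 796.3, 759.5 and 640.8 normalized counts, 0.48 ± 0.08 above vehicle on the log2 scale (DESeq2, adjusted p = 1.08e-08). IL11 was at 1554.4, 1356.9 and 1249.5, a log2 difference of -0.23 ± 0.07 (DESeq2, adjusted p = 0.0064). Both differences had the sign seen at the high dose. SOCS3 averaged 487.5 ± 25.9, with a log2 difference of -0.12 ± 0.09 (adjusted p = 0.379).

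In SW1783 given 20 µg/mL, DESeq2 and edgeR each called 0 members. DESeq2 gave an adjusted p for 7 of the 9, all but IL1A and IL1B, and 1 had an unadjusted p under 0.05. Over all genes tested, 0.119% were called. That member was LIF, at 464.6, 426.4 and 423.8 normalized counts against 511.6 to 541.2 in vehicle, which gave -0.26 ± 0.08 on the log2 scale (adjusted p = 0.0502 with DESeq2 and 0.0651 with edgeR). LIF was therefore below vehicle at the low dose in all 3 libraries and above it at the higher doses, and the former difference did not pass the test. IL6 averaged 85.1 ± 19.7 and IL1A 13.9 ± 7.3, both overlapping with vehicle.

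Between the medium and the high dose, a comparison that uses no vehicle, the same 4 ligands were called higher and IL11 and SOCS3 lower, against 9.79% of all genes tested that were called, 4.41% higher and 5.38% lower. The log2 differences were 2.53 ± 0.14 for IL6, 1.70 ± 0.07 for LIF, 2.58 ± 0.24 for IL1A and 0.84 ± 0.16 for IL1B. IL11 fell by 0.73 ± 0.07 and SOCS3 by 0.63 ± 0.10, with an adjusted p of 1.29e-09 for SOCS3 (DESeq2). Without high-dose replicate 2, the SOCS3 difference was -0.56 and no longer over the fold threshold. Most of the rise of IL6 and LIF thus lay between 100 and 500 µg/mL.

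**Figure D3:**
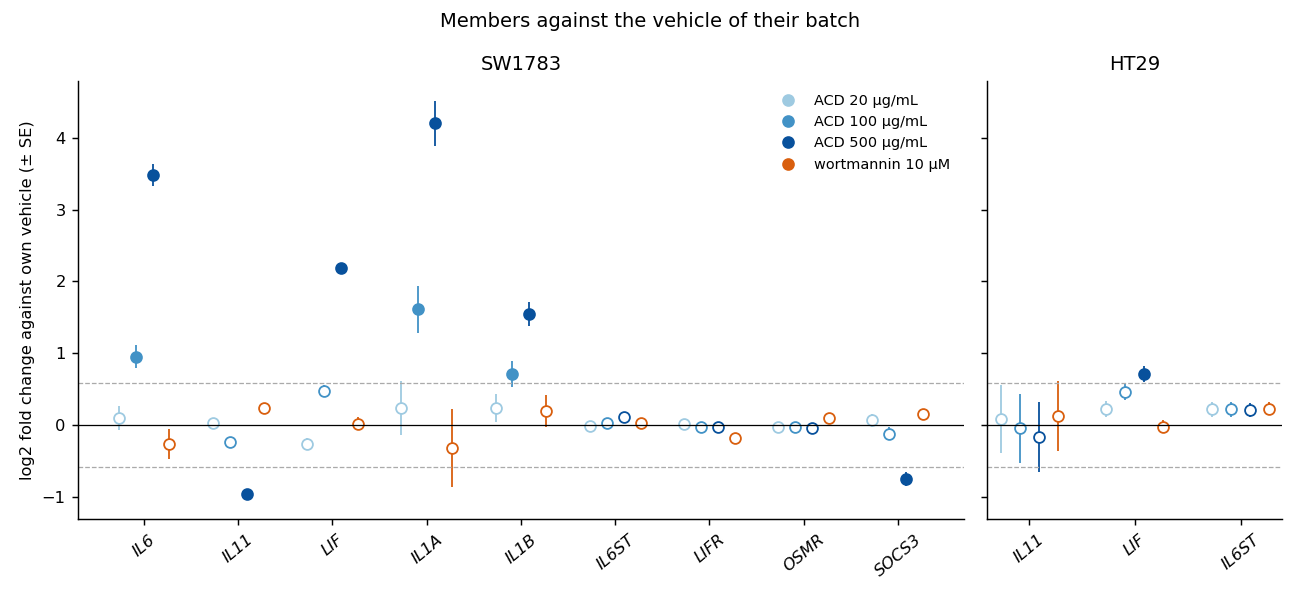
Log2 fold changes (± SE) against the vehicle of the same batch for the members with a mean of 10 or more normalized counts in a line, at 3 doses of ACD and with wortmannin. Filled points were called, and dashed lines mark a 1.5-fold change. In SW1783, IL6 went from 0.10 to 0.95 and 3.48 with dose and IL11 from 0.03 to -0.23 and -0.96. In HT29, LIF went from 0.23 to 0.46 and 0.71.

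In HT29, only IL11, LIF and IL6ST had a mean of 10 or more normalized counts in batch B. LIF rose at the high dose, the single member called, where 3.13% of all genes tested were called. Its vehicle libraries were at 607.7, 618.3 and 573.5 normalized counts and its high-dose libraries at 1089.3, 803.5 and 1029.6. All 3 were above vehicle, by 0.71 ± 0.11 on the log2 scale or 1.63-fold (adjusted p = 5.68e-09 with DESeq2, 0.00111 with edgeR). Replicate 2 of the high dose, the library with the fewest counts in the series (15941255), was the lowest of the 3 for LIF, and without it the LIF change was 0.82 ± 0.08. The share of mitochondrial ribosomal RNA was at most 1.22% in vehicle and 11.3% to 12.5% at the high dose in HT29, and with size factors that leave out mitochondrial genes the LIF change was 0.71 ± 0.11.

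At lower doses in HT29, LIF lay in order between vehicle and the high dose. At the medium dose it was at 843.1, 799.5 and 832.9 normalized counts, 0.46 ± 0.11 above vehicle (adjusted p = 0.00245 with DESeq2, 0.0525 with edgeR), under the fold threshold. At the low dose it was at 724.7, 695.0 and 688.5, a log2 difference of 0.23 ± 0.11 (DESeq2, adjusted p = 0.64), with all 3 libraries above vehicle. LIF at the high dose was above the medium dose by 0.25 ± 0.11 with overlapping libraries (DESeq2, adjusted p = 0.359), and by 0.36 ± 0.08 (adjusted p = 0.000413, under the fold threshold) without high-dose replicate 2. In that comparison 0.687% of all genes were called. At the medium dose DESeq2 and edgeR each called 0 of the 3 measured members, where 0.786% of all genes were called (1.96% without the fold threshold). At the low dose each called 0, where 0.279% were called. At either dose 2 of the 3, LIF and IL6ST, had an unadjusted p under 0.05 with DESeq2. The share of all genes at that threshold is not given here.

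IL6ST in HT29 averaged 2033.3 ± 198.2 normalized counts without and 2342.7 ± 290.5 with the high dose, with overlapping libraries and a log2 difference of 0.21 ± 0.10 (adjusted p = 0.241). It averaged 2368.2 ± 31.0 at the medium and 2368.2 ± 116.4 at the low dose, with all libraries above vehicle. The log2 difference was 0.22 ± 0.10 at either dose (DESeq2, adjusted p = 0.406 at the medium and 0.637 at the low dose). IL11 averaged 12.7 ± 6.7 and 11.6 ± 2.2, and the log2 difference of -0.16 has a 95% interval of -1.11 to 0.80, so that a change of the size seen in SW1783 was not detectable at this depth. IL1B had 0 to 2 counts in vehicle and 1, 2 and 8 counts at the high dose. IL6 had 0 counts in all high-dose libraries and a single count in the 18 HT29 libraries. The other members (IL1A, LIFR, OSMR, SOCS3) had 0 to 4 counts in every HT29 library, and no fold change is given for them.

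**Figure D4:**
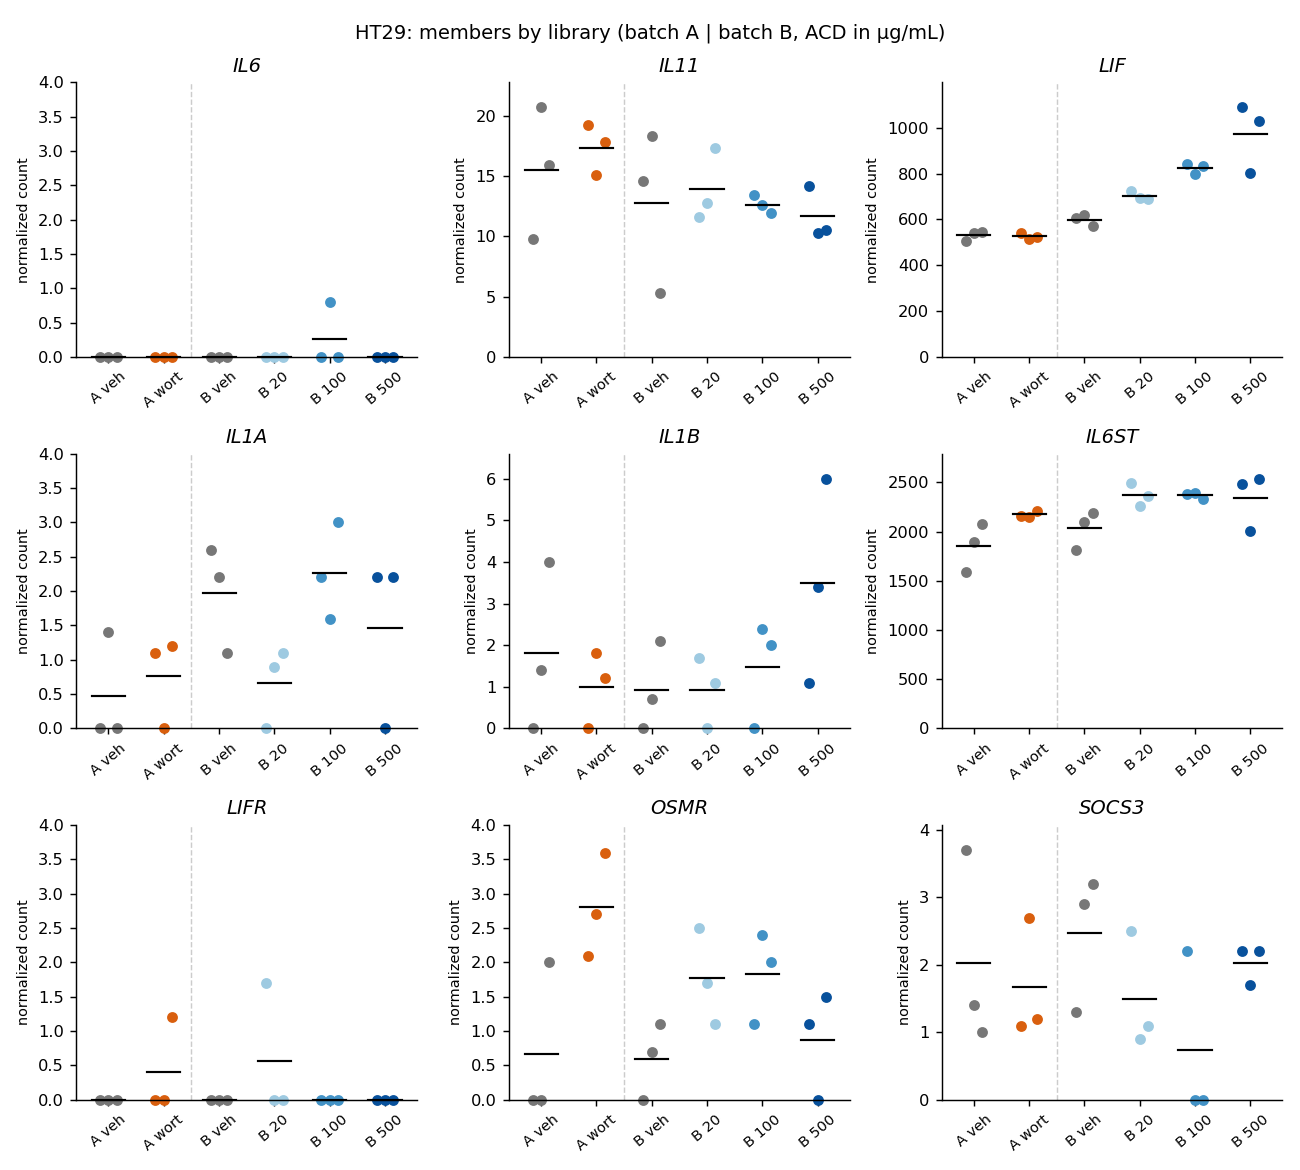
Normalized counts of the 9 members in each HT29 library (points) with the group mean (bar), batch A left and batch B right of the dashed line, with ACD in µg/mL. LIF at 500 µg/mL lay between 803.5 and 1089.3 against 573.5 to 618.3 in vehicle, and IL6, IL1A, IL1B, LIFR, OSMR and SOCS3 stayed near 0 in all groups.

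The responses of the lines were compared by the interaction of line and treatment. LIF responded more in SW1783 at the high dose, with a difference of log2 fold changes of 1.43 ± 0.13 (adjusted p = 5.96e-26 with DESeq2, 1.96e-08 with edgeR), where 14.6% of all genes tested were called, 6.86% with the larger value in SW1783. At the medium dose the LIF responses of 0.48 in SW1783 and 0.46 in HT29 differed by 0.00 ± 0.13, with a 95% interval of -0.26 to 0.26 and 3.31% of all genes called. At the low dose LIF was below vehicle in SW1783 and above it in HT29, and the difference of -0.51 ± 0.14 passed the test but not the fold threshold (adjusted p = 0.0256 with DESeq2), while edgeR gave 0.22. There 0.261% of all genes were called, and 0.895% without the fold threshold. The larger LIF response of SW1783 was thus seen at the high dose and not at the lower doses.

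For IL11 the interaction at the high dose was -0.80 ± 0.36 (DESeq2, adjusted p = 0.084) and for IL6ST -0.14 ± 0.10 (adjusted p = 0.339). The IL11 value rests on 6 to 14 counts in the HT29 high-dose libraries and 5 to 25 in the vehicle libraries. Without replicate 2 of the HT29 vehicle it was -1.3, with an adjusted p of 0.0206. For the 6 members not measured in HT29 no difference in response is given. At the medium dose, 0 of the 3 members measured in both lines were called by DESeq2 or edgeR, and 1 had an unadjusted p under 0.05. At the low dose the same tools called 0, and 2 had an unadjusted p under 0.05.

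With wortmannin the pattern of ACD was not seen. In SW1783, DESeq2 and edgeR each called 0 members, 8 of the 9 had an adjusted p, and 3 had an unadjusted p under 0.05. Of all genes tested, 2.67% were called, and 31.7% without the fold threshold. IL11 was at 1741.8, 1787.2 and 1949.0 normalized counts in vehicle and at 2278.7, 2175.7 and 2035.3 with wortmannin, with no overlap and a log2 difference of 0.24 ± 0.05 (DESeq2, adjusted p = 4.01e-05). LIFR differed by -0.18 ± 0.04 (DESeq2, adjusted p = 0.000366) and OSMR by 0.10 ± 0.03 (DESeq2, adjusted p = 0.0035). These differences were under 1.5-fold, and that of IL11 was opposite in sign to the one at the high dose of ACD.

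IL6 was at 83.7, 100.6 and 100.9 normalized counts in the vehicle of batch A and averaged 79.4 ± 6.5 with wortmannin (log2 difference -0.26 ± 0.21; adjusted p = 0.382). LIF averaged 623.9 ± 62.8 and 629.9 ± 13.1, a difference of 0.02 with a 95% interval of -0.15 to 0.18. IL1A, at 17.0 ± 7.8 and 13.5 ± 5.1, was too low for an adjusted p. SOCS3 averaged 618.3 ± 27.4 and 687.0 ± 12.4, and its 0.15 ± 0.08 did not pass (DESeq2, adjusted p = 0.134), although its groups did not overlap. In all 4 of 9 members had groups that did not overlap, against 53.7% of all genes tested.

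In HT29 with wortmannin, DESeq2 and edgeR called 0 of the 3 measured members, of which LIF and IL6ST had an adjusted p, 1 had an unadjusted p under 0.05, and 2.7% of all genes tested were called. IL6ST was the nearest, at 1593.3, 1891.3 and 2073.5 normalized counts in vehicle and 2157.7, 2150.9 and 2211.0 with wortmannin (log2 difference 0.23 ± 0.09; DESeq2, adjusted p = 0.0575). LIF averaged 532.1 ± 21.9 and 526.1 ± 12.3, a log2 difference of -0.02 with a 95% interval of -0.20 to 0.16. In the interaction of line and wortmannin, DESeq2 and edgeR called 0 of the 3 measured members, with 1 unadjusted p under 0.05 and 3.39% of all genes called.

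The pathway around the members was followed in 11 lists with 111 genes. The lists were chosen with earlier results of these data known, so counts by list are description only. At the high dose in SW1783, 93 of them could be tested, and 25 rose and 6 fell. Counts by list are set here beside the 8.42% of all genes that rose and the 9.28% that fell. The list of IL1 and NF-kB responsive genes stood out in number, with 10 of 14 tested higher, 1 lower and a median log2 fold change of 1.88. CXCL8, a neutrophil chemokine, went from 100.9 ± 8.5 to 2168.2 ± 133.2 normalized counts (4.42 ± 0.11). NFKBIZ, an NF-kB cofactor of IL6 induction, rose by 1.93 ± 0.15, ICAM1, an adhesion molecule, by 1.68 ± 0.05, and BIRC3, an inhibitor of apoptosis, by 1.36 ± 0.10. CCL2, a monocyte chemokine, was the gene that fell, by 1.21 ± 0.12.

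The gene lists of the IL6 arm were less uniform in SW1783 at the high dose. Of the other IL6-family cytokines 5 were tested, and DESeq2 called 0 while edgeR called 1 lower, with 3 at an unadjusted p under 0.05. CLCF1, a ligand of the CNTF receptor, differed by -0.30 ± 0.08. Of the other receptor chains 4 were tested, 0 were called by DESeq2 or edgeR, and 1 had an unadjusted p under 0.05, namely IL11RA, the alpha chain for IL11, at -0.40 ± 0.13. Among JAK kinases and STAT factors 3 of 10 rose, STAT2 by 1.05 ± 0.06, JAK2 by 0.69 ± 0.07 and STAT5A by 0.63 ± 0.14. Among the other SOCS and STAT inhibitors SOCS7 rose by 0.68 ± 0.05 and SOCS5 fell by 0.83 ± 0.06.

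Of 14 STAT3 target genes tested, 4 rose and 1 fell, with a median of 0.10. The kinase gene PIM1 rose by 1.61 ± 0.10, the growth regulator MYC by 1.60 ± 0.06 and the transcription factor CEBPB by 1.46 ± 0.16, whereas the NF-kB cofactor BCL3 fell by 1.04 ± 0.08, as did SOCS3 by 0.75 ± 0.10. Each of these genes is also controlled by other factors.

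On the IL1 side, 2 of 6 receptors tested rose and 1 fell, and 2 of 13 signal transducers rose and 1 fell. IL1R1, the receptor of IL1A and IL1B, fell by 0.64 ± 0.06 in SW1783 at the high dose, from 1020.7 ± 15.9 to 653.0 ± 19.7 normalized counts, and IL1RL1, the IL33 receptor, rose by 0.68 ± 0.05. The adaptor MYD88 fell by 0.65 ± 0.07, while the kinase IRAK2 rose by 1.02 ± 0.09 and TAB3, a subunit of the TAK1 complex, by 0.76 ± 0.05. Of 8 inflammasome and processing genes tested, 1 rose and 1 fell. CASP1, the protease that matures IL1B, fell by 0.78 ± 0.19, and the inflammasome gene NLRC4 rose by 1.3 ± 0.51 from low counts. Of the other IL1-family cytokines 2 were tested by DESeq2, with 0 called and 0 at an unadjusted p under 0.05 from that tool. In the same list edgeR called 1 lower. Of 9 genes for cytokine mRNA decay and stability, 2 rose, both decay factors of one family, ZFP36L1 by 1.3 ± 0.03 and ZFP36 by 0.81 ± 0.10.

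At the medium dose in SW1783, 7 list genes rose and 1 fell of 78 tested, where 3.78% of all genes were called. CXCL8 rose by 0.93 ± 0.13, ICAM1 by 0.73 ± 0.05, CEBPB by 0.73 ± 0.16, MYC by 0.70 ± 0.06 and ZFP36L1 by 0.65 ± 0.03, and CCL2 fell by 0.92 ± 0.12. At the low dose 2 of 60 fell, where 0.119% of all genes were called, PTGS2, the inducible cyclooxygenase, by 0.65 ± 0.06 and CCL2 by 0.61 ± 0.12. With wortmannin 2 rose and 4 fell of 79, where 2.67% of all genes were called, with TIMP1, a metalloproteinase inhibitor, up by 0.66 ± 0.02 and BIRC3 and CXCL8 down by 0.92 ± 0.15 and 0.61 ± 0.19.

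In HT29 at the high dose, 10 of 81 list genes tested rose and 1 fell, and 9 of the 10 were among the 12 tested IL1 and NF-kB responsive genes (median 1.69; 1.36% of all genes rose). CXCL1, a neutrophil chemokine, went from 39.7 ± 7.0 to 649.8 ± 160.9 normalized counts (4.05 ± 0.21) and CXCL8 from 103.5 ± 14.5 to 882.1 ± 405.4 (3.09 ± 0.26). The tenth gene was PIM1, from 266.3 ± 22.7 to 583.1 ± 56.3 normalized counts, and the gene that fell was IL18, an IL1-family cytokine, by 0.69 ± 0.22. In these libraries IL6, IL1A and SOCS3 had at most 3 counts and IL1B had 1, 2 and 8. At the medium dose 8 of the 12 rose (median 1.15; 0.786% of all genes called), CXCL1 by 3.01 ± 0.21 and CXCL8 by 2.08 ± 0.26. At the low dose 4 genes of the list rose by DESeq2 and 1 by edgeR (0.279% of all genes called by DESeq2), CXCL1 by 2.04 ± 0.22 and CXCL8 by 1.35 ± 0.26 under DESeq2. With wortmannin in HT29, STAT2 rose by 0.69 ± 0.09 and JAK2 by 0.62 ± 0.21.

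**Figure D5:**
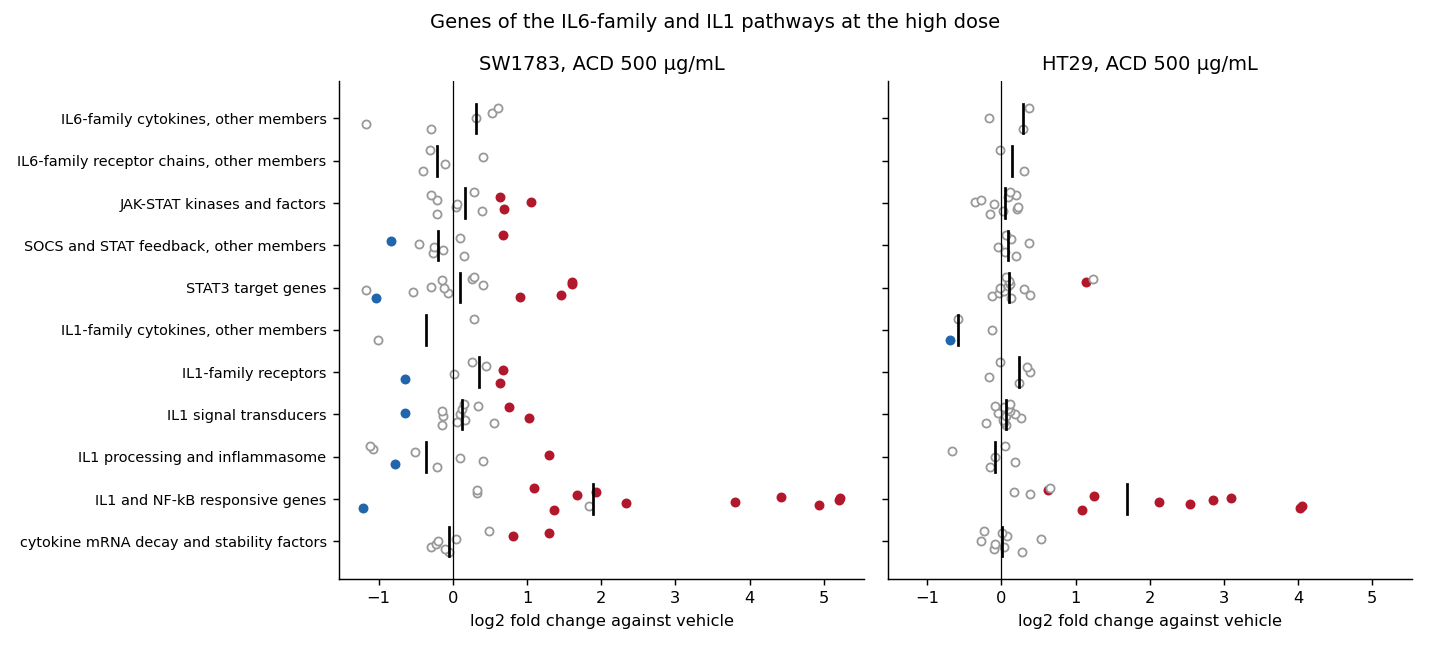
Log2 fold changes at the high dose of ACD for the tested genes of 11 lists around the members (points; filled red called higher, filled blue called lower, open not called) with the median of each list (bar). The IL1 and NF-kB responsive genes had medians of 1.88 in SW1783 and 1.69 in HT29, and the other receptor chains of the IL6 family had no filled point.

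CXCL8 differed between the lines at the medium and the high dose in opposite senses. Its response was larger in HT29 at the medium dose (interaction -1.18 ± 0.32; DESeq2, adjusted p = 0.00417) and larger in SW1783 at the high dose (1.3 ± 0.31; DESeq2, adjusted p = 0.000266). NFKBIZ responded more in SW1783 at the high dose (1.71 ± 0.15; adjusted p = 1.31e-27), as did MYC (1.44 ± 0.09; adjusted p = 2.55e-56), both with DESeq2. IL1R1 differed by -0.91 ± 0.24 (DESeq2, adjusted p = 0.000981), with its fall in SW1783.

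The ligands, SOCS3 and, less closely, IL6ST varied together or in opposition over the 12 SW1783 libraries of batch B, which share a dose series, whereas LIFR and OSMR did not follow them. Pearson's r of log2 normalized counts was 0.98 between IL6 and LIF, 0.97 between IL6 and IL1A and 0.96 between IL1A and IL1B, and -0.96 between IL6 and IL11. SOCS3 followed IL11 (0.92) and ran against LIF (-0.96). LIFR had r = -0.29 with IL6, -0.29 with LIF and -0.04 with IL6ST, and OSMR had r = -0.40 with IL6, -0.27 with LIF and 0.26 with SOCS3. In HT29, LIF and IL6ST had r = 0.63. The genes most like IL6 among 11264 in SW1783 were MAP1LC3B, RNF19B and USP32 (r = 0.995 each), those most like LIF were MAFG (0.996), ELK4 (0.994) and ZNF697 (0.993), and those most like IL1A were CDK7 (0.992), NMRAL2P (0.989) and DRAXIN (0.987). IL1B was nearest to AHNAK2 (0.995), IL11 to BDKRB2 and JPT1 (0.99 each) and SOCS3 to RAB15 (0.992). In HT29, LIF was nearest to AHCYL1 (0.987).

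Some members overlap genes on the other strand. The libraries were made with a directional kit, which keeps strand, but the strand setting of the counting is not given in the sources used here. IL6 (chr7:22725884-22732002, plus strand) overlaps IL6-AS1, which averaged 14.2 ± 7.0 normalized counts in SW1783 vehicle and 15.1 ± 4.8 at the high dose, and STEAP1B, at 13.9 ± 4.6 and 20.1 ± 1.2. LIF (chr22:30240453-30246759, minus strand) overlaps LIF-AS2, at 9.3 ± 2.7 and 30.6 ± 7.9, and LIF-AS1, near 0. LIFR overlaps LIFR-AS1, at 31.4 ± 5.0 and 18.8 ± 4.8, and IL6ST overlaps 3 genes without a symbol. OSMR (chr5:38845858-38945596, plus strand) overlaps RICTOR, an mTOR subunit gene, which went from 1065.0 ± 38.7 to 1665.5 ± 23.7, and reads of the pair cannot be told apart if strand was not used. IL11, IL1A, IL1B and SOCS3 overlap no annotated gene.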

How the data were processed

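RNA-seq of 36 libraries was analysed from the deposited table of expected counts per gene, which the authors made with Trim Galore 0.6.5, STAR 2.7.3a and RSEM 1.3.3, per the submitters' processing notes (the methods state other versions of Trim Galore and STAR). The counts were not normalized, and 8.84% were not whole, so they were rounded. The library kit was directional, and the strand setting of the counting is not given in the sources used here. The methods name the build as GRCh38 together with hg19, so positions (GENCODE v44, GRCh38) describe genes only.

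Each line was fitted with DESeq2 1.42.0 in R 4.3.3, on the 12 libraries of batch B and the 6 of batch A, and interactions on both lines. P-values were two-sided and Benjamini-Hochberg adjusted over all genes. Counts at an unadjusted p under 0.05 use the p-values of DESeq2. The share of all genes at that threshold is not given, so these counts have no background. A gene was called at an adjusted p under 0.05 and over 1.5-fold. edgeR 4.0.16 (quasi-likelihood) was an alternative, as were other size factors, a low-count filter, the compared groups alone, no fold threshold, a replicate block and leaving out each library. The code was tested on simulated data. Members and gene lists were chosen with earlier results of these data known. All members were named. From each list and contrast, up to 4 called genes with a mean of 100 or more and no overlap between groups were named by size of change. One gene that met this rule is not reported here. Genes of like pattern were the 3 with the highest r over the 12 libraries of batch B. CLCF1, IL11RA, CASP1, NLRC4, IL18, JAK2 in HT29, CCL2 at the high dose in SW1783 and the interactions of list genes fell outside the naming rule. They were named after their values were seen. Nothing says that replicates were separate cultures, so p-values measure the spread between libraries, which may be technical.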

Additional observations from a re-analysis of the deposited data

Results flagged for a closer look

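The response of LIF to the high dose of ACD differed between the lines by 1.43 ± 0.13 on the log2 scale in a test of the interaction (DESeq2, adjusted p = 5.96e-26). LIF was at 2304.7 to 2506.3 normalized counts in SW1783 and at 803.5 to 1089.3 in HT29 at that dose, each in the fit of its own line, and higher than vehicle in 3 of 3 libraries of both lines.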

How the results depend on the processing

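Of 1029 alternative values of single members, 1027 kept their side of the threshold, 1 lost its call (SOCS3, high against medium dose) and 1 gained one (IL11, line difference at the high dose), each on leaving out 1 library, and 0 called values changed sign. Among uncalled values within 1 SE of 0, 43 changed sign. Leaving out single libraries gave 1 to 2 members called lower between high and medium dose in SW1783 (1 without high-dose replicate 2) and 0 to 1 in the line difference at the high dose (1 without HT29 vehicle replicate 2). Without the fold threshold, 1 member was lower at the medium dose in SW1783, and 2 were higher and 1 lower with wortmannin in SW1783. Besides these, 1 was higher at the medium dose in HT29, and 1 was lower in the line difference at the low dose. In SW1783, LIF also joined the members called higher at the medium dose. IL6ST joined them at the high dose and between the medium and high dose.

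Deviations of same-numbered libraries from their group means correlated at -0.481 to 0.352. With 3 libraries per group, this cannot show whether replicate numbers pair the libraries. With the replicate number as a block, the LIF change at the high dose was 0.70 in HT29, and no member's call changed. Over all genes, the count of calls moved from 395 to 257 under the block with wortmannin in SW1783 and from 339 to 212 in HT29, from 11 to 7 at the low dose in SW1783, and from 450 to 266 in the line difference with wortmannin. edgeR called 809 genes where DESeq2 called 522 at the medium dose in SW1783, 30 where it called 11 at the low dose, 687 against 395 with wortmannin, 18 against 48 at the low dose in HT29 and 20 against 33 in its line difference. Leaving out single libraries gave 5, 6 and 6 at the low dose in SW1783 (without low-dose replicates 1, 2 and 3) against 11. In HT29 it gave 25 and 31 against 48 at the low dose (without vehicle replicate 2 and low-dose replicate 3) and 87 against 135 at the medium dose (without medium-dose replicate 3). With only the compared groups, 6 were called at the low dose in SW1783 and 306 against 469 at the high dose in HT29. The comparison of groups alone was not run for wortmannin, whose fit holds no others. Depth limits the members with few counts in HT29.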
